A study of Mus musculus with 24 samples.

Results

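The genes described here are 37 named members of the cell's response to endoplasmic reticulum (ER) stress and of the integrated stress response, measured in mouse GT1-7 cells. They were chosen by gene name, as the rows of the deposited tables that carry one of the 37 names. No value entered that rule, but the list was drawn up with earlier results of these data known. Each table has 57010 rows, of which 38 carry a member's name because Ddit3 has 2 rows. The second Ddit3 row (ENSMUSG00000116429) held 0 counts in every library, and Ddit3 below means the first (ENSMUSG00000025408).

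GT1-7 is an immortalised mouse hypothalamic line that makes gonadotropin-releasing hormone, and Mkrn3 encodes a makorin, one of a family of proteins with zinc fingers and a RING domain. In the fractionation experiment, total RNA and cytoplasmic RNA were taken from unmodified cells (wt) and from cells that carry GFP-Mkrn3 stably (Mkrn3ox), giving the groups wt total, Mkrn3ox total, wt cytoplasm and Mkrn3ox cytoplasm. In the RNA immunoprecipitation (RIP) experiment, cells received 6 µg of a plasmid for GFP or for GFP-Mkrn3 and were lysed after 24 h. From each lysate 5% was kept as input and the rest was pulled down on beads that bind GFP (IP), giving the groups GFP input, GFP IP, GFP-Mkrn3 input and GFP-Mkrn3 IP. Each of the 8 groups has 3 libraries, made by CEL-seq2, which reads the 3' ends of transcripts. The labels name neither the promoter of the constructs nor whether Mkrn3ox is 1 clone or a pool. All groups share the GT1-7 background and no ER stressor is named in the labels.

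Proteins that enter the ER are folded there by chaperones and by enzymes that form disulfide bonds. When unfolded protein accumulates, the ER sensors IRE1 (Ern1), ATF6 and PERK raise the transcription of chaperones, of folding enzymes and of the machinery that returns misfolded proteins to the cytosol for degradation. PERK also belongs to the integrated stress response, in which kinases phosphorylate the translation factor eIF2alpha, general translation falls and the mRNA of the transcription factor ATF4 is translated more. ATF4 and its target CHOP (Ddit3) then drive amino acid synthesis and transport genes, the phosphatase subunit that reverses the phosphorylation, and genes linked to cell death.

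Some of the members hold known stress response motifs in their promoters. The RefSeq table (GRCm38.p6, the mm10 assembly) held a promoter for 32 of the 37 names, 35 promoters in all, and none for Hyou1, Atf6, Ppp1r15b, Manf and Derl1. The 250 bases before each gene start were searched on both strands for 3 motifs. The ER stress response element (ERSE), with the letters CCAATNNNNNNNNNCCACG, to which ATF6 and XBP1 bind together with NF-Y, was in 9 of the 35 member promoters (25.7%) against 37 of all 32851 promoters (0.113%). The 9 genes were Calr, Canx, Creld2, Derl3, Dnajc3, Hsp90b1, Hspa5, Pdia6 and Syvn1. The shorter ERSE-II, ATTGG and CCACG with any 1 base between them, was found only in Herpud1 among the members and in 10 promoters in all (0.0304%). The core of the ATF4-C/EBP composite site, TGATGNAA, was in Asns, Chac1, Herpud1 and Vldlr, 11.4% of member promoters against 3.45% of all. None of these motifs overlaps another in the members shown. The 8 windows that follow belong to members described below, with the motif in capitals, and Asns is among them as a standard ATF4 target. Where the motif lies on the opposite strand, its reverse complement is in capitals.
Hspa5 (ERSE, chr2:34772010-34772058, plus strand): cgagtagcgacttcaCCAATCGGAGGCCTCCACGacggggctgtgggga
Hsp90b1 (ERSE, opposite strand, chr10:86705518-86705566, minus strand): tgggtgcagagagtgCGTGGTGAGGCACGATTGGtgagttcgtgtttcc
Calr (ERSE, opposite strand, chr8:84847060-84847108, minus strand): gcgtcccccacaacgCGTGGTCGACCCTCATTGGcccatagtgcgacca
Canx (ERSE, chr11:50325785-50325833, minus strand): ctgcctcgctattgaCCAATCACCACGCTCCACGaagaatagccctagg
Syvn1 (ERSE, chr19:6046517-6046565, plus strand): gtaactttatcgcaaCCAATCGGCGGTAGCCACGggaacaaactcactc
Herpud1 (ERSE-II, chr8:94386362-94386402, plus strand): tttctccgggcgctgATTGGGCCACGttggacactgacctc
Asns (ATF4-C/EBP core, chr6:7693210-7693247, minus strand): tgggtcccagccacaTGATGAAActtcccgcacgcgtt
Chac1 (ATF4-C/EBP core, opposite strand, chr2:119351034-119351071, plus strand): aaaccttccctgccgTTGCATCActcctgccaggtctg
These matches are letters in a window, not evidence of binding, and the data measure RNA, not transcription from these promoters.

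The libraries were of unequal depth in the 2 tables. Fractionation libraries held 374386 to 759271 counts over 8309 to 11284 detected genes, and RIP libraries held 6254703 to 14575652 counts over 15566 to 20599 genes. The biological coefficient of variation within groups was 0.384 in the former and 0.115 in the latter. Within the RIP groups the lowest correlation between replicates was that of GFP-Mkrn3 IPs 2 and 3 (Pearson r = 0.978). The row of Mkrn3 marked the RIP labels, with 3.97 to 8.61 CPM (counts rescaled to equal effective library sizes) in the GFP inputs against 3602 to 3733 in the GFP-Mkrn3 inputs and 9067 to 9832 CPM in the GFP-Mkrn3 IPs. In the fractionation table the Mkrn3 row held 0 counts in all 6 total RNA libraries and 0 to 5 in the cytoplasmic ones, so it did not distinguish the libraries labelled Mkrn3ox. Why was not tested. Of 15 neuronal and neuroendocrine markers 8 were detected in the GFP inputs, with a summed level of 462 to 519 CPM, and Snap25, Chga, Scg2, Stmn2, Nefl, Nefm and Elavl4 were at 0. The neuronal sum was 254 to 281 CPM in the GFP IPs, 491 to 546 in the GFP-Mkrn3 inputs and 376 to 418 in the GFP-Mkrn3 IPs. Markers of fibroblasts, endothelium and immune cells, 9 in all, summed to 276 to 323 CPM in the GFP inputs, 496 to 564 in the GFP IPs, 297 to 318 in the GFP-Mkrn3 inputs and 375 to 396 in the GFP-Mkrn3 IPs. Glial markers, also 9, stayed between 15.5 and 24 CPM in these 3 groups and the GFP-Mkrn3 inputs. The part of these markers in the results below was not tested. Nothing in the labels ties the libraries of a group to separate cultures. The p-values therefore cover the differences among these libraries, and those may be technical.

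Levels of the members differed strongly between the tables even where both measured whole-cell RNA. In wt total RNA Hspa5, the ER chaperone BiP, read 39.6, 46.1 and 17.4 CPM, whereas in the GFP inputs it read 3860.0, 3475 and 3759 CPM. The ratio of the group means was 0.0093. Xbp1 and Ddit4 held 0 counts in the 3 wt total libraries and averaged 43.8 and 36.3 CPM in the GFP inputs. Ddit3 went the other way, with 1326, 942 and 967 CPM in wt total RNA and 96.7, 93.0 and 86.4 CPM in the GFP inputs, a ratio of 11.7. Over the 36 members tested in the RIP table the median ratio was 0.0938. Of the 36 members 18 (50%) lay under 0.1 and 2 lay above 1, namely Ddit3 and Syvn1 (1.13). Over the 13025 RIP-tested genes with an input level above 0 the median ratio was 0.167, with 40% under 0.1 and 15.2% above 1. The 2 tables were normalised separately and come from different experiments, so these ratios are a description of the tables and not of the cells.

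**Figure D1:**
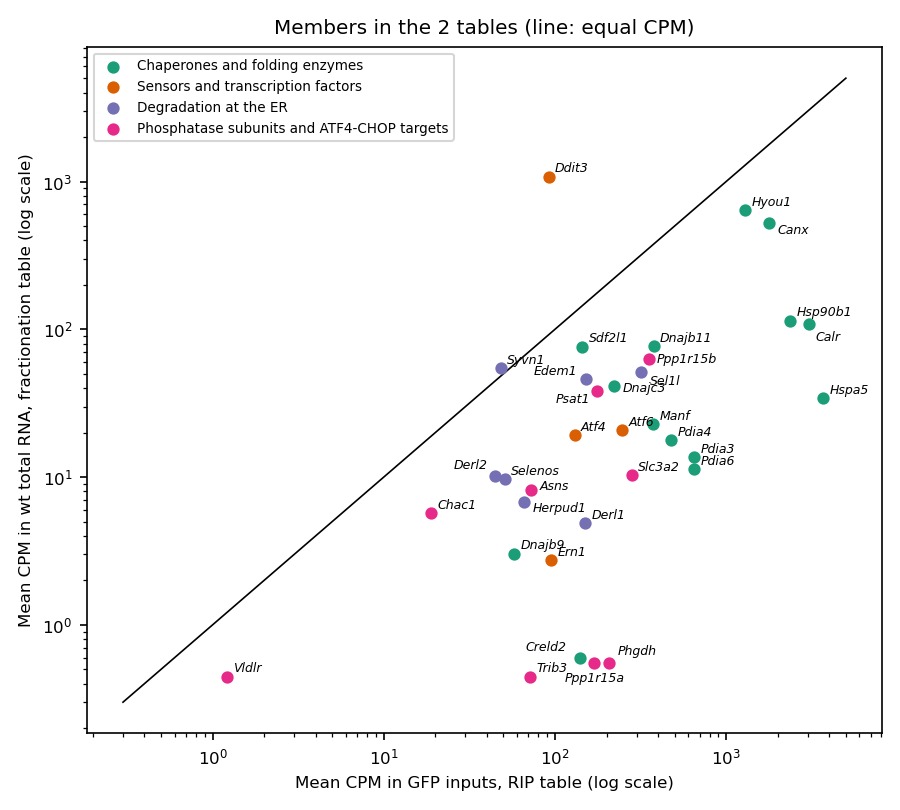
Mean CPM of each member in wt total RNA (fractionation table, y axis, log scale) against its mean in the GFP inputs (RIP table, x axis, log scale), coloured by role, with a line at equal CPM. All plotted members but Ddit3 and Syvn1 lie below the line. Xbp1 and Ddit4, at 0 in wt total RNA, and Derl3, not tested in the RIP table, are left out.

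No label gives the strand setting of the counting, and the fractionation table holds unusual rows. The row of mt-Nd6, a mitochondrial gene on the strand opposite to most others, took 8.79% to 23.2% of the fractionation counts and 0.0125% to 0.254% of the RIP counts. In the reference annotation 13 of the 37 members overlap another gene and 27 have one within 5 kb. Ddit3 (chr10:127290793-127296291, plus strand) is overlapped on the minus strand by Mbd6 and by Mars1, which encodes a methionyl-tRNA synthetase. Mars1 was at 119 CPM in the GFP inputs and 279 CPM in wt total RNA, scaled by library size. Mbd6 was at 35.6 and 5.21 CPM. Reads of overlapping genes cannot be told apart without strand. Some members that overlap no other gene also lay far below the GFP inputs in wt total RNA. The ratios were 0 for Xbp1, 0.0353 for Calr and 0.0485 for Hsp90b1, while Hyou1 (0.5) and Sdf2l1 (0.528), also without overlap, lay nearer. Each fractionation value given later therefore belongs to the row with the member's name, whether or not the member overlaps another gene. Whether that row measures the member's mRNA was not tested.

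In the RIP experiment 36 of the 37 members passed the filter on low counts and were tested among 13052 genes. Derl3, a derlin of the ER membrane, held at most 0.364 CPM in any library and was not tested. The heatmap of the 12 libraries shows the main pattern. Most chaperone and folding enzyme mRNAs were more abundant in the GFP IPs than in the GFP-Mkrn3 IPs, while Atf4, Chac1, Herpud1 and Syvn1 went the other way. Changes are given as log2 fold changes ± SE from the edgeR quasi-likelihood fit. The SE was derived from the test, as the absolute log2 fold change over the square root of the F statistic. A gene is called when its Benjamini-Hochberg adjusted p over all tested genes is under 0.05. A level in an IP is a share of the RNA in that library, so a lower value can also mean that other RNAs took more of it.

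**Figure D2:**
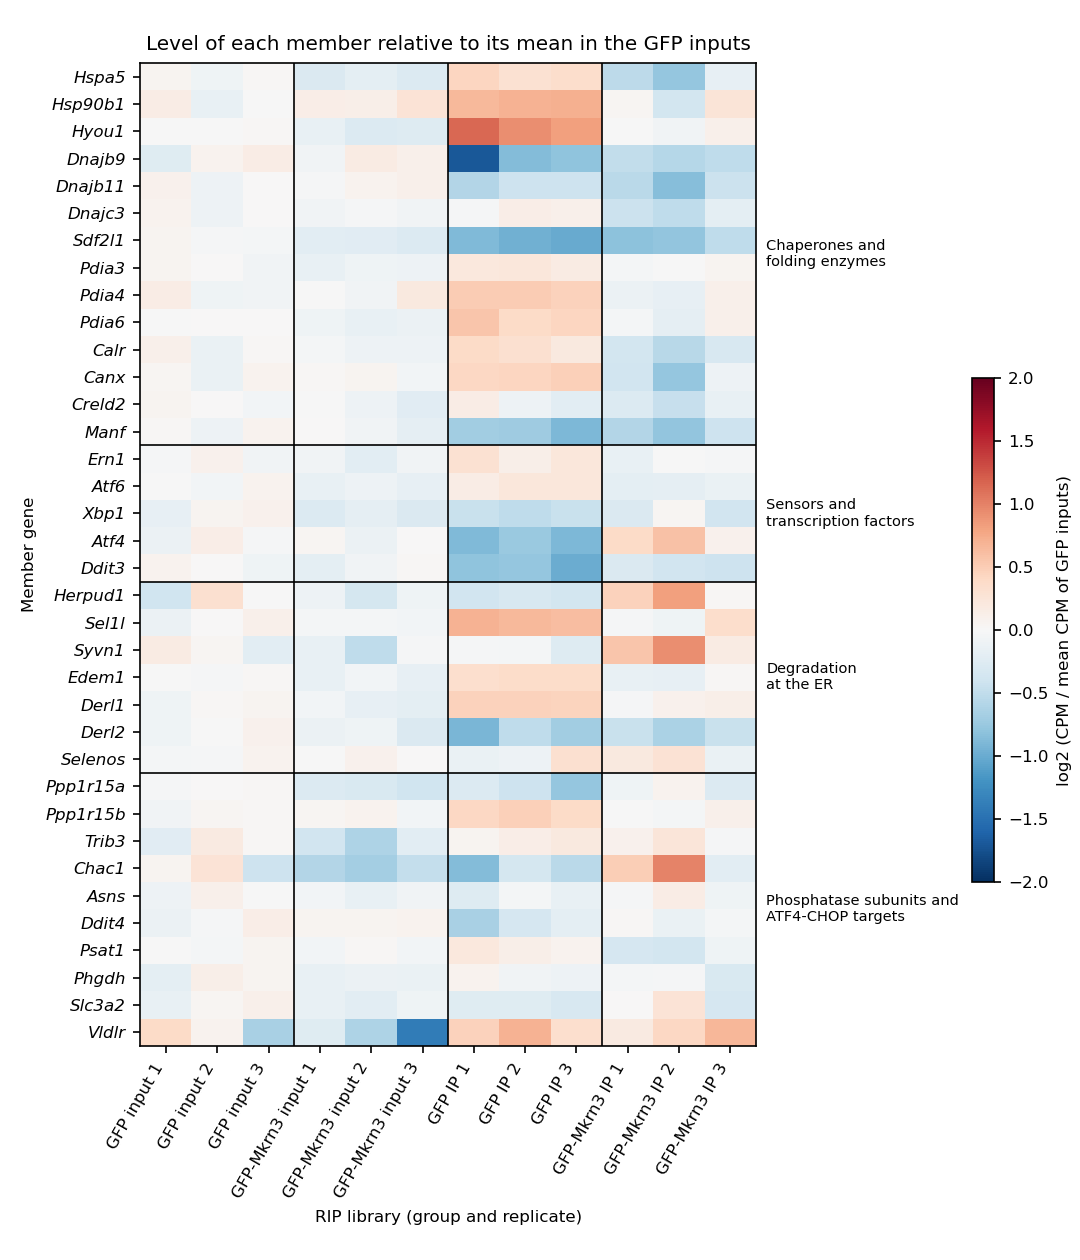
Log2 of each member's CPM over its mean in the 3 GFP inputs (colour, from -2 to 2) for 36 members (rows, grouped by role) in the 12 RIP libraries (columns). The input columns are pale, Hyou1, Hsp90b1 and Sel1l are red in the 3 GFP IPs, and Atf4, Herpud1 and Syvn1 are red or near white in the GFP-Mkrn3 IPs.

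Before any pull-down, no member passed the test between the plasmids. None of the 36 was called between the GFP-Mkrn3 and GFP inputs by edgeR, against 0.0153% of all genes, and none by DESeq2. At an unadjusted p under 0.05 there were 6 of the 36, beside 734 of all 13052 genes. They were Trib3, Hspa5, Chac1, Ppp1r15a, Hyou1 and Sdf2l1, all with a lower mean in the GFP-Mkrn3 inputs. The largest of these differences were those of Chac1 (-0.57 ± 0.25, adjusted p = 0.864) and Trib3 (-0.39 ± 0.12, adjusted p = 0.71). The median log2 fold change was -0.12 over the members and -0.0031 over all genes. For Hspa5 the difference was -0.26 ± 0.11, adjusted p = 0.864.

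The 4 comparisons that involve IPs share libraries and are not independent of one another. They are the GFP IP against its input, the GFP-Mkrn3 IP against its input, the IPs against each other, and the difference between the first 2, called enrichment beyond GFP. A difference between the IPs is given on the log2 scale as GFP-Mkrn3 minus GFP. In the GFP IP 14 members were higher and 10 lower than in the input, 66.7% called against 50.3% of all genes (25.1% higher, 25.2% lower). In the GFP-Mkrn3 IP 5 were higher and 9 lower than in its input, 38.9% against 26.7% (13.9% higher, 12.8% lower). Between the IPs 9 members were higher with GFP-Mkrn3 and 16 lower, 69.4% against 37.6% (20.4% higher, 17.2% lower). In the enrichment beyond GFP 8 were higher and 12 lower, 55.6% against 24.3% (13.2% higher, 11.1% lower). With a filter at a mean of 20 counts, 25 of 35 members and 4947 of 11308 genes were called between the IPs. For the enrichment beyond GFP these were 20 and 3268. How far the shares of members called follow their abundance was not tested. The median log2 fold change between the IPs was -0.11 over the members and 0.03 over all genes, and for the enrichment beyond GFP -0.02 and 0.04.

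Scaling matters for the split. When libraries were scaled by size alone, the median of all genes shifted to 0.21 between the IPs and to 0.23 for the enrichment beyond GFP. The median over the members became 0.06 between the IPs and 0.18 for the enrichment beyond GFP, each above 0 where it had been below. The calls among members then became 14 higher and 14 lower between the IPs, with 4104 and 1154 over all genes instead of 2661 and 2246. For the enrichment beyond GFP they became 14 higher and 5 lower, with 2845 and 603 over all genes instead of 1724 and 1454. For the GFP IP against input they became 10 and 14, and for the GFP-Mkrn3 IP against input 9 and 7. No called member changed sign under this scaling, but some calls ended. Between the IPs these were Pdia3 (adjusted p = 0.882) and Ern1 (0.388), and in the enrichment beyond GFP they were Hspa5 (0.0538), Sel1l (0.0706), Ppp1r15b (0.106), Dnajc3 (0.214), Pdia6 (0.214), Psat1 (0.286) and Edem1 (0.35). Against input, the calls that ended were those of Atf6, Pdia3, Calr and Ern1 in the GFP IP and of Ddit3 and Derl2 in the GFP-Mkrn3 IP. Other members, not called with TMM, were called under this scaling. In the GFP IP against input these were Slc3a2 (adjusted p = 0.0145), Chac1 (0.038), Herpud1 (0.0398) and Asns (0.0447), all lower. In the GFP-Mkrn3 IP they were Hyou1 (0.00668), Derl1 (0.0117), Ppp1r15a (0.0344) and Pdia3 (0.0352), all higher. Between the IPs they were Manf (0.00437), Slc3a2 (0.00587), Xbp1 (0.00914), Asns (0.0124) and Derl2 (0.0305), and in the enrichment beyond GFP Slc3a2 (0.0118), Manf (0.0142), Trib3 (0.0227), Asns (0.0289), Derl2 (0.0317) and Dnajb9 (0.0429), all higher with GFP-Mkrn3. Where a member is said below to have been called or not to have passed the test, the scaling is TMM.

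**Figure D3:**
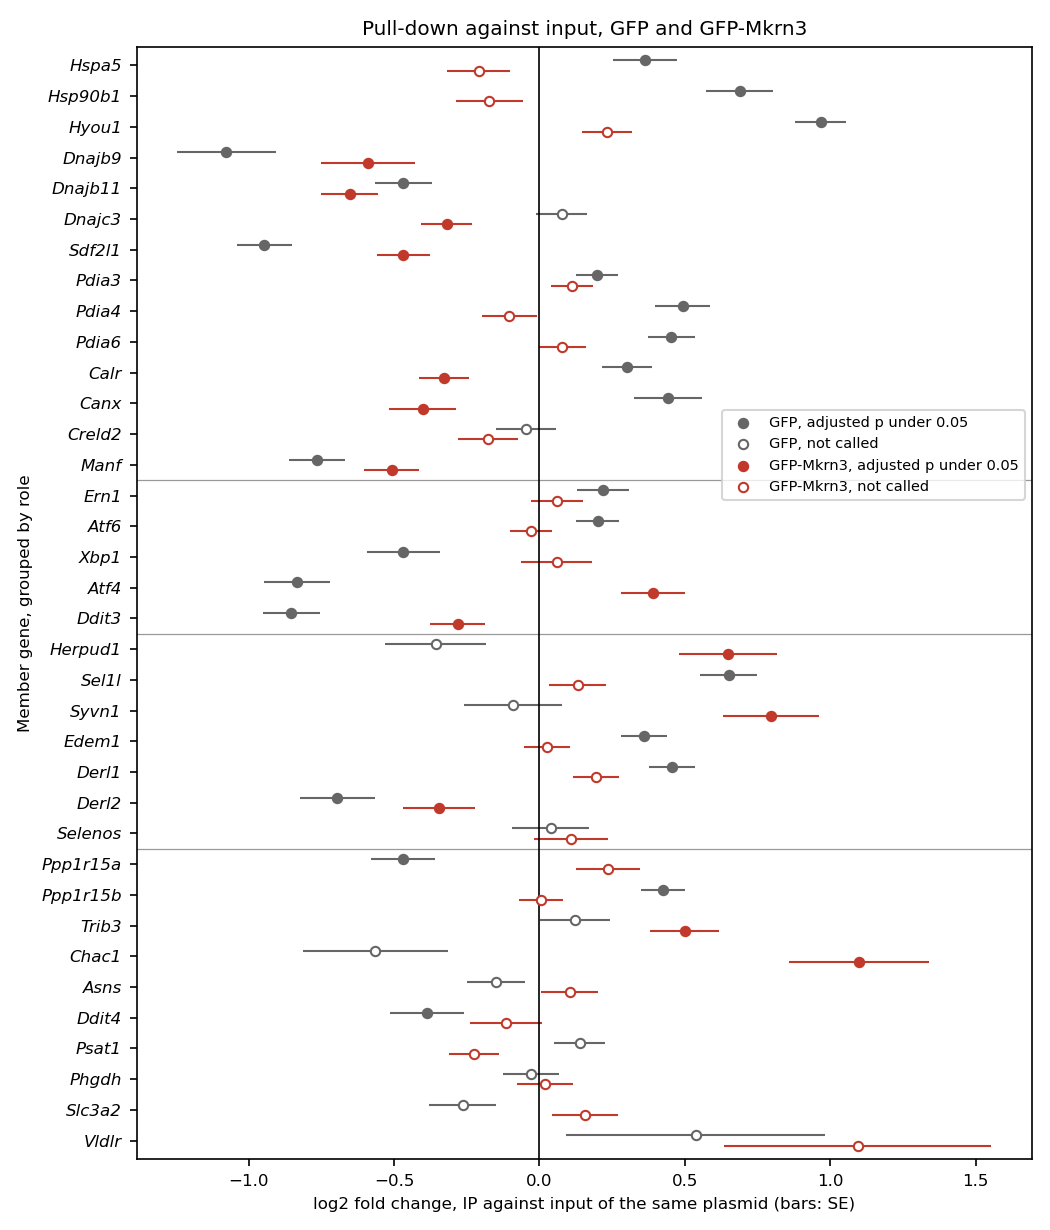
Log2 fold change of IP against input of the same plasmid (x axis, bars SE) for 36 members (rows, grouped by role), grey for GFP and red for GFP-Mkrn3, filled where the adjusted p is under 0.05. Hyou1 stands at 0.97 with GFP and 0.23 with GFP-Mkrn3, and Chac1 at -0.56 and 1.10.

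Among the 14 chaperones and folding enzymes 8 were higher and 4 lower in the GFP IP than in its input, against 25.1% and 25.2% of all genes. In the GFP-Mkrn3 IP 0 were higher and 7 lower, against 13.9% and 12.8%. Between the IPs 2 were higher and 9 lower with GFP-Mkrn3, against 20.4% and 17.2%. The median was -0.47, and scaling by library size alone gave 3 and 8 with a median of -0.29. In the enrichment beyond GFP 1 was higher and 8 lower, against 13.2% and 11.1%, and scaling by size alone gave 3 and 5. Hspa5 (chr2:34772090-34776529), the ER Hsp70, which also holds the stress sensors inactive, read 3860.0, 3475 and 3759 CPM in the GFP inputs, 4996, 4580.0 and 4696 in the GFP IPs, 3017, 3215 and 3061 in the GFP-Mkrn3 inputs and 2585, 2167 and 3284 in the GFP-Mkrn3 IPs. The GFP IPs were the highest group and the GFP-Mkrn3 IPs overlapped their inputs, and the IPs differed by -0.83 ± 0.11, adjusted p = 1.46e-05. Hsp90b1, the ER Hsp90 (GRP94), read 2605, 2143 and 2340.0 CPM in the GFP inputs, 3721, 3821 and 3878 in the GFP IPs, 2579, 2557 and 2848 in the GFP-Mkrn3 inputs and 2424, 1838 and 2819 in the GFP-Mkrn3 IPs. Its GFP IPs stood above all other libraries, and the IPs differed by -0.69 ± 0.12, adjusted p = 0.000139. Hyou1 (chr9:44379490-44392369), an exchange factor for Hspa5, read 1280.0, 1275 and 1305 CPM in the GFP inputs, 2846, 2438 and 2260.0 in the GFP IPs, 1164, 1070.0 and 1080.0 in the GFP-Mkrn3 inputs and 1286, 1230.0 and 1376 in the GFP-Mkrn3 IPs. Its GFP IPs stood above every other library, by more than the spread within any group, and the IPs differed by -0.95 ± 0.09, adjusted p = 3.87e-07. Each of these 3 was also called in the enrichment beyond GFP, at -0.57 for Hspa5, -0.86 for Hsp90b1 and -0.74 for Hyou1.

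Calnexin and calreticulin, the lectins that hold glycoproteins in the folding cycle, went with them. Canx (chr11:50293957-50325673), the membrane-bound lectin, read 1849, 1637 and 1885 CPM in the GFP inputs, 2398, 2417 and 2484 in the GFP IPs, 1824, 1864 and 1729 in the GFP-Mkrn3 inputs and 1379, 1053 and 1670.0 in the GFP-Mkrn3 IPs. The order was GFP IP above both inputs above GFP-Mkrn3 IP, with an overlap of 1 GFP-Mkrn3 IP library with the GFP inputs, and the IPs differed by -0.83 ± 0.12, adjusted p = 2.55e-05. Calr (chr8:84842088-84846931), the soluble lectin, read 3297, 2783 and 3114 CPM in the GFP inputs, 3990.0, 3829 and 3510.0 in the GFP IPs, 2993, 2865 and 2844 in the GFP-Mkrn3 inputs and 2375, 2085 and 2466 in the GFP-Mkrn3 IPs. Here the GFP-Mkrn3 IPs lay below every other library, and the IPs differed by -0.71 ± 0.09, adjusted p = 6.67e-06. The enrichment beyond GFP was -0.84 ± 0.16, adjusted p = 0.00124 for Canx and -0.63 ± 0.12, adjusted p = 0.0012 for Calr.

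The protein disulfide isomerases followed in smaller steps. Pdia4 read 532, 452 and 454 CPM in the GFP inputs, 682, 684 and 657 in the GFP IPs, 475, 458 and 551 in the GFP-Mkrn3 inputs and 440.4, 428 and 513 in the GFP-Mkrn3 IPs. Only its GFP IPs stood apart, and the IPs differed by -0.55 ± 0.09, adjusted p = 0.000161. Pdia6, which also damps IRE1 signalling, read 649, 651 and 651 CPM in the GFP inputs, 952, 846 and 871 in the GFP IPs, 615, 587 and 597 in the GFP-Mkrn3 inputs and 631, 574 and 695 in the GFP-Mkrn3 IPs. Its GFP IPs stood apart too, with a difference of -0.49 ± 0.08, adjusted p = 0.000117. Pdia3, the isomerase that works with the lectins, read 677, 653 and 616 CPM in the GFP inputs, 752, 755 and 725 in the GFP IPs, 588, 614 and 604 in the GFP-Mkrn3 inputs and 633, 644 and 675 in the GFP-Mkrn3 IPs. The GFP IPs lay above the GFP-Mkrn3 IPs by less, at -0.19 ± 0.07, adjusted p = 0.0411, and this call was lost in 5 of 6 fits that left out an IP library, all but GFP-Mkrn3 IP 3, with an adjusted p of up to 0.145.

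The J-domain proteins, partners of Hspa5, did not move as one. Dnajc3, which also inhibits PERK, read 234, 207 and 223 CPM in the GFP inputs, 218, 243 and 238 in the GFP IPs, 210.2, 218 and 211 in the GFP-Mkrn3 inputs and 165, 156 and 193 in the GFP-Mkrn3 IPs. The GFP-Mkrn3 IPs were its lowest libraries, and the IPs differed by -0.45 ± 0.09, adjusted p = 0.000571. Dnajb11 read 401, 353 and 378 CPM in the GFP inputs, 252, 284 and 282 in the GFP IPs, 371, 397 and 406 in the GFP-Mkrn3 inputs and 260.5, 208 and 279 in the GFP-Mkrn3 IPs. Both IPs lay below both inputs, and the difference between the IPs did not pass the test (-0.13 ± 0.10, adjusted p = 0.32). Dnajb9, a partner in degradation that restrains IRE1, read 49.1, 60.5 and 63.9 CPM in the GFP inputs, 17.9, 31.6 and 33.2 in the GFP IPs, 55.2, 64.6 and 61.9 in the GFP-Mkrn3 inputs and 41.1, 39.1 and 40.5 in the GFP-Mkrn3 IPs. It was lowest in the GFP IPs, and the IPs differed by 0.55 ± 0.17, adjusted p = 0.0146, a call lost without GFP IP 1 (adjusted p = 0.0838).

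Of the small secreted or retained members, Sdf2l1, a component of ER chaperone complexes, read 151, 142 and 141 CPM in the GFP inputs, 78.2, 74.4 and 72.3 in the GFP IPs, 125, 124 and 120.2 in the GFP-Mkrn3 inputs and 82.2, 83.4 and 102 in the GFP-Mkrn3 IPs. Both IPs lay below the inputs and the GFP IPs lay lowest, with 0.25 ± 0.09, adjusted p = 0.0451 between the IPs. That call was lost without any 1 of the 3 GFP IPs or GFP-Mkrn3 IP 3 (adjusted p up to 0.215), while the enrichment beyond GFP was 0.48 ± 0.13, adjusted p = 0.0125. Manf, a secreted factor released on ER stress, read 381, 349 and 391 CPM in the GFP inputs, 229.9, 229 and 199.5 in the GFP IPs, 377, 354 and 329 in the GFP-Mkrn3 inputs and 249, 217 and 280.3 in the GFP-Mkrn3 IPs. Both IPs lay below both inputs, and the IPs overlapped (0.18 ± 0.10, adjusted p = 0.16). Creld2, a secreted isomerase-like protein, read 102 to 155 CPM over the 12 libraries and was not called in any RIP comparison by edgeR, while DESeq2 gave an adjusted p of 0.043 between the IPs. Of the 8 tested genes whose promoters hold an ERSE, 6 were lower, 1 (Syvn1) was higher and 1 (Creld2) was not called between the IPs by edgeR, against 17.2% lower and 20.4% higher over all genes. All of them but Syvn1 are chaperones or folding enzymes. In that role 9 of 14 (64.3%) were lower, with or without the motif, and any part of the motif was not tested.

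**Figure D4:**
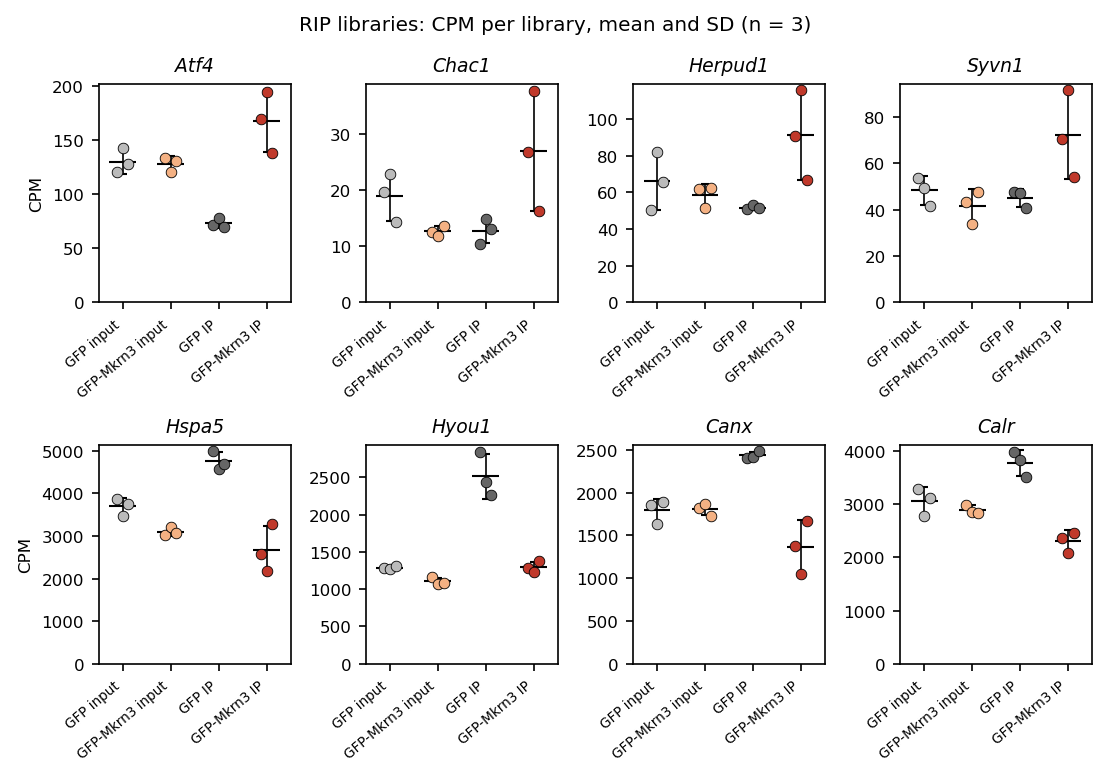
CPM per RIP library (points), group mean (line) and SD (bar, n = 3) for 8 members in the 4 groups, with linear axes from 0. In the upper row the GFP-Mkrn3 IPs have the highest means, and in the lower row the GFP IPs do.

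Of the 5 sensors and transcription factors, 2 were higher and 2 lower in the GFP-Mkrn3 IP than in the GFP IP (20.4% and 17.2% of all genes), and 3 were higher and 0 lower in the enrichment beyond GFP (13.2% and 11.1%). Scaling by library size alone gave 3 and 1 between the IPs, beside 4104 and 1154 of all 13052 genes. For the enrichment beyond GFP it gave 3 and 0, beside 2845 and 603. Atf4 (chr15:80255184-80257545, ENSMUSG00000042406), the central transcription factor of the integrated stress response, read 120.0, 143 and 128 CPM in the GFP inputs, 70.9, 77.9 and 69.9 in the GFP IPs, 133, 120.1 and 130.2 in the GFP-Mkrn3 inputs and 169, 195 and 138 in the GFP-Mkrn3 IPs. The GFP IPs were the lowest libraries, the GFP-Mkrn3 IPs had the highest mean, and 1 of them (138 CPM) lay within the range of the inputs. Atf4 fell in the GFP IP against its input (-0.83 ± 0.11, adjusted p = 7.14e-06) and rose in the GFP-Mkrn3 IP against its own (0.39 ± 0.11, adjusted p = 0.0125). The IPs differed by 1.20 ± 0.11, adjusted p = 5.34e-07, and the enrichment beyond GFP was 1.23 ± 0.16, adjusted p = 4.93e-05. The rise over its own input was lost without GFP-Mkrn3 input 2 or GFP-Mkrn3 IP 2 (adjusted p up to 0.0691). The difference between the IPs and the enrichment beyond GFP stayed called in every fit that left out 1 library.

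Ddit3, which encodes CHOP, a partner of ATF4 that promotes cell death, read 96.7, 93.0 and 86.4 CPM in the GFP inputs, 52.4, 53.7 and 46.1 in the GFP IPs, 80.5, 87.4 and 93.5 in the GFP-Mkrn3 inputs and 75.4, 70.8 and 69.0 in the GFP-Mkrn3 IPs. It was lower in both IPs than in the inputs and lowest in the GFP IPs, without overlap. The IPs differed by 0.50 ± 0.10, adjusted p = 0.000584, and the enrichment beyond GFP was 0.57 ± 0.14, adjusted p = 0.00539. Xbp1, whose mRNA is spliced by IRE1 into the form that makes an active factor, read 39.2, 45.5 and 46.7 CPM in the GFP inputs, 32.2, 30.7 and 32.2 in the GFP IPs, 36.2, 38.5 and 35.7 in the GFP-Mkrn3 inputs and 36.0, 44.8 and 33.6 in the GFP-Mkrn3 IPs. Gene counts do not separate spliced from unspliced Xbp1. Its GFP IPs were the lowest libraries, and the difference between the IPs was 0.27 ± 0.12, adjusted p = 0.0949. The enrichment beyond GFP was 0.53 ± 0.18, adjusted p = 0.0358, lost in 10 of 12 fits that left out a library, all but GFP input 1 and GFP-Mkrn3 IP 3 (adjusted p up to 0.113). Ern1, the sensor with kinase and nuclease activity, read 93.6, 101 and 90.6 CPM in the GFP inputs, 118, 103 and 111 in the GFP IPs, 90.2, 81.9 and 90.2 in the GFP-Mkrn3 inputs and 85.6, 94.5 and 93.0 in the GFP-Mkrn3 IPs. Its GFP IPs were the highest libraries, and the IPs differed by -0.28 ± 0.09, adjusted p = 0.018, lost without GFP IP 1 or GFP-Mkrn3 IP 1 (adjusted p up to 0.0959). Atf6, the sensor that is cut to release a transcription factor, read 245, 236 and 258 CPM in the GFP inputs, 274, 287 and 288 in the GFP IPs, 223, 229 and 220.5 in the GFP-Mkrn3 inputs and 216, 217 and 226 in the GFP-Mkrn3 IPs. Its GFP IPs stood above every other library, and the IPs differed by -0.37 ± 0.07, adjusted p = 0.000641.

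The 8 members of degradation at the ER, of which 7 were tested, split between the IPs into 2 higher, 3 lower and 2 not called, beside the same 20.4% and 17.2% of all genes. In the enrichment beyond GFP 2 were higher and 2 lower (13.2% and 11.1%). Scaling by library size alone gave 3 and 3 between the IPs, beside 4104 and 1154 of all 13052 genes. For the enrichment beyond GFP it gave 3 and 0, beside 2845 and 603. Herpud1 (chr8:94386429-94395371), a scaffold of the degradation complex and a target of both ATF6 and ATF4, read 50.2, 82.0 and 65.7 CPM in the GFP inputs, 50.7, 53.0 and 51.2 in the GFP IPs, 61.6, 51.7 and 62.1 in the GFP-Mkrn3 inputs and 90.8, 116 and 67.0 in the GFP-Mkrn3 IPs. The GFP IPs lay close together near the low end of the inputs, and 1 GFP-Mkrn3 IP (67.0 CPM) lay within the range of the GFP inputs. Against input it did not pass the test in the GFP IP (-0.36 ± 0.17, adjusted p = 0.0966) and rose in the GFP-Mkrn3 IP (0.65 ± 0.17, adjusted p = 0.00815), a rise lost without GFP-Mkrn3 input 2 (adjusted p = 0.0514). The IPs differed by 0.83 ± 0.17, adjusted p = 0.000876, and the enrichment beyond GFP was 1.00 ± 0.24, adjusted p = 0.00584. Syvn1 (chr19:6046576-6053718), the ubiquitin ligase HRD1 at the core of the complex, read 53.8, 49.4 and 41.5 CPM in the GFP inputs, 47.7, 47.0 and 40.5 in the GFP IPs, 43.4, 33.8 and 47.6 in the GFP-Mkrn3 inputs and 70.5, 91.5 and 54.1 in the GFP-Mkrn3 IPs. All 3 GFP-Mkrn3 IPs exceeded every other library, although GFP-Mkrn3 IP 3, at 54.1 CPM, only just did. The IPs differed by 0.68 ± 0.16, adjusted p = 0.00291, and the enrichment beyond GFP was 0.89 ± 0.23, adjusted p = 0.0102. Syvn1 is overlapped on the opposite strand by Mrpl49, so its reads may be shared. The same limit holds for other members that overlap a gene. Among them are Ddit3 with Mars1 and Mbd6, and Derl2 with Mis12 (44 CPM in the GFP inputs, scaled by library size).

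Sel1l, the adaptor that binds Syvn1, moved in the other direction. It read 293, 321 and 344 CPM in the GFP inputs, 516, 498 and 489.7 in the GFP IPs, 312, 310.5 and 308 in the GFP-Mkrn3 inputs and 314, 299.9 and 406 in the GFP-Mkrn3 IPs, with the GFP IPs above all other libraries, and the IPs differed by -0.56 ± 0.10, adjusted p = 0.000211. Edem1, a lectin that sorts misfolded glycoproteins, read 151, 149 and 155 CPM in the GFP inputs, 192, 196 and 196 in the GFP IPs, 137, 146 and 135 in the GFP-Mkrn3 inputs and 137, 135 and 154 in the GFP-Mkrn3 IPs. The GFP IPs again stood apart, by -0.46 ± 0.08, adjusted p = 0.000181. Derl1, a channel protein, read 141, 153 and 156 CPM in the GFP inputs, 207, 207 and 203 in the GFP IPs, 144, 133 and 131 in the GFP-Mkrn3 inputs and 147, 158 and 162 in the GFP-Mkrn3 IPs. Its GFP IPs were the highest libraries, and the IPs differed by -0.40 ± 0.08, adjusted p = 0.000574. Derl2, its relative, read 42.3, 44.5 and 47.4 CPM in the GFP inputs, 23.6, 31.6 and 27.6 in the GFP IPs, 41.3, 42.3 and 36.5 in the GFP-Mkrn3 inputs and 33.0, 28.8 and 32.8 in the GFP-Mkrn3 IPs. Both IPs lay below both inputs, the IP ranges overlapped (0.19 ± 0.13, adjusted p = 0.276), and the fall in the GFP-Mkrn3 IP against its input was -0.35 ± 0.12, adjusted p = 0.0462. Selenos, a selenoprotein of the same complex, read 46.3 to 63.4 CPM over the 12 libraries and was not called in any RIP comparison by edgeR or DESeq2. In the enrichment beyond GFP, Edem1 (-0.33 ± 0.11, adjusted p = 0.0364) was lost in 10 of 12 fits that left out a library, all but GFP IP 1 and GFP-Mkrn3 IP 3.

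The 10 phosphatase subunits and ATF4-CHOP targets had 3 higher and 2 lower between the IPs (20.4% and 17.2% of all genes), and 2 higher and 2 lower in the enrichment beyond GFP (13.2% and 11.1%). This split depended on the scaling. With library size alone it was 5 and 2 between the IPs, beside 4104 and 1154 of all 13052 genes. For the enrichment beyond GFP it was then 5 and 0, beside 2845 and 603. Chac1 (chr2:119351242-119354326), which degrades glutathione and is a target of ATF4 and CHOP, read 19.7, 22.9 and 14.2 CPM in the GFP inputs, 10.4, 14.8 and 13.1 in the GFP IPs, 12.6, 11.9 and 13.6 in the GFP-Mkrn3 inputs and 26.7, 37.7 and 16.3 in the GFP-Mkrn3 IPs. The 3 GFP-Mkrn3 IPs were spread by more than 2-fold, and the lowest of them (16.3 CPM) overlapped the GFP inputs but no GFP IP. Chac1 rose in the GFP-Mkrn3 IP against its input (1.10 ± 0.24, adjusted p = 0.0026), and the IPs differed by 1.09 ± 0.24, adjusted p = 0.00162. Its enrichment beyond GFP, 1.66 ± 0.35, adjusted p = 0.0021, was the largest of any member. Trib3, a pseudokinase induced by CHOP, read 60.9, 80.8 and 72.8 CPM in the GFP inputs, 74.2, 78.1 and 81.6 in the GFP IPs, 55.1, 46.5 and 62.0 in the GFP-Mkrn3 inputs and 76.0, 84.8 and 70.3 in the GFP-Mkrn3 IPs. It rose in the GFP-Mkrn3 IP against its input (0.50 ± 0.12, adjusted p = 0.00505), whose libraries were low, while the IPs overlapped (-0.01 ± 0.12, adjusted p = 0.946).

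The phosphatase subunits, which bring protein phosphatase 1 to eIF2alpha, went in opposite directions. Ppp1r15a, the stress-induced subunit GADD34, read 165, 169 and 172 CPM in the GFP inputs, 139.9, 126 and 98.7 in the GFP IPs, 139, 137 and 128 in the GFP-Mkrn3 inputs and 159, 176 and 140.3 in the GFP-Mkrn3 IPs. The GFP IPs lay below the GFP inputs and below the GFP-Mkrn3 IPs, the nearest libraries being at 139.9 and 140.3 CPM. The IPs differed by 0.38 ± 0.11, adjusted p = 0.0101, lost without GFP IP 3 (adjusted p = 0.0768), and the enrichment beyond GFP was 0.71 ± 0.15, adjusted p = 0.00306. Ppp1r15b, the constitutive subunit, read 335, 362 and 360.0 CPM in the GFP inputs, 468, 491 and 462 in the GFP IPs, 362, 371 and 338 in the GFP-Mkrn3 inputs and 352, 345 and 378 in the GFP-Mkrn3 IPs. Its GFP IPs stood above every other library, and the IPs differed by -0.40 ± 0.08, adjusted p = 0.000382.

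Of the genes of amino acid supply, Asns, asparagine synthetase and a standard readout of ATF4, read 67.9, 78.6 and 72.1 CPM in the GFP inputs, 60.8, 71.0 and 65.5 in the GFP IPs, 70.0, 65.9 and 69.7 in the GFP-Mkrn3 inputs and 71.6, 80.6 and 68.5 in the GFP-Mkrn3 IPs. All 4 groups overlapped, and the difference between the IPs did not pass the test (0.16 ± 0.10, adjusted p = 0.211). Psat1, an enzyme of serine synthesis, read 174, 171 and 182 CPM in the GFP inputs, 204, 192 and 185 in the GFP IPs, 169, 179 and 168 in the GFP-Mkrn3 inputs and 139.7, 136 and 166 in the GFP-Mkrn3 IPs. Its GFP-Mkrn3 IPs were the lowest libraries, and the IPs differed by -0.39 ± 0.09, adjusted p = 0.00145. The enrichment beyond GFP of Psat1 (-0.36 ± 0.12, adjusted p = 0.0373) was lost in 9 of 12 fits that left out a library, all but GFP input 3, GFP IP 3 and GFP-Mkrn3 IP 3. Ddit4, an inhibitor of mTORC1, read 33.6, 35.6 and 39.7 CPM in the GFP inputs, 23.2, 28.8 and 31.6 in the GFP IPs, 37.8, 37.8 and 38.1 in the GFP-Mkrn3 inputs and 36.8, 33.0 and 35.3 in the GFP-Mkrn3 IPs. The GFP IPs were its lowest libraries, and the IPs differed by 0.33 ± 0.13, adjusted p = 0.0445, lost without GFP IP 1, GFP IP 2, GFP-Mkrn3 IP 1 or GFP-Mkrn3 IP 3 (adjusted p up to 0.215). Phgdh, the first enzyme of serine synthesis, read 169 to 226 CPM over the 12 libraries, and Slc3a2, the shared heavy chain of amino acid transporters, read 222 to 341 CPM. Vldlr, a lipoprotein receptor, read 0.460 to 1.96 CPM. None of these 3 was called in any RIP comparison by edgeR with TMM scaling or by DESeq2, whereas Slc3a2 was called in 3 with scaling by library size alone.

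Some smaller calls against input also rested on single libraries. In the GFP IP, calls were lost for Calr without GFP input 2 (adjusted p = 0.0512), for Ddit4 without GFP input 3 or GFP IP 1 (up to 0.0859), and in 4 of 6 fits each for Atf6, Pdia3 and Ern1 (up to 0.184). The libraries were GFP inputs 1 and 2 and GFP IPs 2 and 3 for Atf6, GFP inputs 2 and 3 and GFP IPs 1 and 2 for Pdia3, and GFP inputs 1 and 3 and GFP IPs 1 and 3 for Ern1. In the GFP-Mkrn3 IP the number of members called fell from 14 to 8 without GFP-Mkrn3 input 2. Calls lost there were those of Canx (adjusted p = 0.0598) and Dnajb9 without that library, Dnajc3 without GFP-Mkrn3 IP 1 (0.0588), Ddit3 without any library but GFP-Mkrn3 input 1 (up to 0.153), and Derl2 without GFP-Mkrn3 input 1 or 2 or GFP-Mkrn3 IP 1 or 2 (up to 0.154). In the enrichment beyond GFP, Pdia6 was lost without GFP IP 1, GFP-Mkrn3 input 1 or GFP-Mkrn3 IP 1 (up to 0.0609), and Dnajc3 in 8 of 12 fits, all but those without GFP input 1, GFP input 3, GFP IP 1 or GFP-Mkrn3 IP 3 (up to 0.0764).

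Other genes of the pathway were counted alongside, from a list of 93 names that 90 rows carry. They cover the eIF2alpha kinases, eIF2 and eIF2B subunits, translocon, signal peptidase, glycosylation and further degradation and folding genes. In the RIP experiment 84 of them were tested. None was called between the inputs by edgeR, against 0.0153% of all genes, or by DESeq2. An unadjusted p under 0.05 was found for 4, beside 734 of all 13052 genes. Of the 84, 25 were higher and 26 lower in the GFP IP than in its input (60.7%, against 50.3% of all genes), with Ssr4 (-1.79 ± 0.12, adjusted p = 1.7e-09), Ssr2 (-1.35 ± 0.11, adjusted p = 1.45e-08), both subunits of the translocon-associated complex, and the glucosyltransferase Uggt1 (0.90 ± 0.07, adjusted p = 1.24e-08) at the lowest p. In the GFP-Mkrn3 IP 14 were higher and 19 lower than in its input (39.3%, against 26.7%), led by Ganab, Sec63 and Fkbp2. Between the IPs 17 were higher and 29 lower (54.8%, against 37.6%), with Ssr2 at 1.24 ± 0.11, adjusted p = 2.99e-07, Uggt1 at -0.70 ± 0.07, adjusted p = 1.25e-06 and Ssr4 at 1.17 ± 0.12, adjusted p = 1.31e-06. In the enrichment beyond GFP 15 were higher and 19 lower (40.5%, against 24.3%), led by Ssr2, Ssr4 and the translocon subunit Sec61b (1.80 ± 0.30, adjusted p = 0.000434). The median log2 fold change of this list between the IPs was -0.07.

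In the fractionation experiment 20 of the 37 members passed the filter and were tested among 5033 genes. The other 17 had low counts, and among them Xbp1 held counts in only 2 libraries, 4 and 1 in Mkrn3ox total 1 and 2. Herpud1 held 0 to 9 counts and Asns 1 to 14 counts per library, too few to test. In cytoplasmic RNA 1 row was higher and 5 were lower in the libraries labelled Mkrn3ox than in wt, 30% called against 10.5% of all genes (4.31% higher, 6.14% lower). The median log2 fold change was -0.62 over the members and 0.03 over all genes. With scaling by library size alone the median over all genes was 0.38, and the calls were 1 higher and 2 lower, with 507 and 189 over all genes instead of 217 and 309. In total RNA 1 member was called (5%) against 7.39% of all genes. By edgeR, Ppp1r15b just missed the threshold in total RNA (-1.61 ± 0.50, adjusted p = 0.0515), as did Dnajc3 in the cytoplasm (-1.73 ± 0.56, adjusted p = 0.0503). DESeq2 called both, at adjusted p = 0.0281 and 0.0265. It called 2 members beside 481 of all genes in total RNA, and 7 beside 653 in the cytoplasm. The markers of fibroblasts, endothelium and immune cells summed to 451 to 569 CPM in the wt cytoplasm and 292 to 370 in the Mkrn3ox cytoplasm, and to 361 to 537 in wt total and 506 to 517 in Mkrn3ox total RNA. The neuronal markers summed to 124 to 249 CPM in the wt cytoplasm and 229 to 300 in the Mkrn3ox cytoplasm, and to 115 to 147 in wt total and 163 to 221 in Mkrn3ox total RNA. Their part in these results was not tested.

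Hyou1 read 519, 719.8 and 690.1 CPM in wt total, 466, 462 and 464 in Mkrn3ox total, 844, 593 and 514 in wt cytoplasm and 257, 298 and 266 in Mkrn3ox cytoplasm. The cytoplasm of the libraries labelled Mkrn3ox lay below all others, and the difference in the cytoplasm was -1.25 ± 0.21, adjusted p = 0.000402. Calr read 86.5, 100.5 and 138 CPM in wt total, 51.2, 73.7 and 94.8 in Mkrn3ox total, 142, 102 and 265 in wt cytoplasm and 29.9, 40.7 and 39.7 in Mkrn3ox cytoplasm. Its lowest libraries were again the Mkrn3ox cytoplasm, at -2.19 ± 0.41, adjusted p = 0.00102. These 2 calls and that of Atf4 held in every fit that left out 1 library. Hsp90b1 read 84.7, 203 and 56.3 CPM in wt total, 42.0, 70.0 and 59.9 in Mkrn3ox total, 77.6, 27.6 and 148 in wt cytoplasm and 17.5, 0 and 29.3 in Mkrn3ox cytoplasm. The cytoplasmic groups overlapped in 1 library each, and the difference in the cytoplasm was -2.36 ± 0.71, adjusted p = 0.0355, lost without wt cytoplasm 1 or 3 or Mkrn3ox cytoplasm 1 or 2 (adjusted p up to 0.179). Sel1l read 32.4, 97.2 and 24.1 CPM in wt total, 16.4, 23.9 and 19.96 in Mkrn3ox total, 23.3, 61.6 and 41.0 in wt cytoplasm and 14.97, 0 and 4.18 in Mkrn3ox cytoplasm. The cytoplasmic groups did not overlap, at -2.69 ± 0.81, adjusted p = 0.0355, lost without wt cytoplasm 2 or 3 or Mkrn3ox cytoplasm 2 or 3 (up to 0.13), and both rows held 0 counts in Mkrn3ox cytoplasm 2. The row of Ddit3 read 1326, 942 and 967 CPM in wt total, 848, 753 and 848 in Mkrn3ox total, 1100.0, 1126 and 1192 in wt cytoplasm and 596, 746 and 755 in Mkrn3ox cytoplasm. Here too the cytoplasmic groups stood apart, at -0.70 ± 0.17, adjusted p = 0.0114, a call lost without Mkrn3ox cytoplasm 1 (adjusted p = 0.0778). Under library size scaling the calls of Hsp90b1 (0.0825), Sel1l (0.0734) and Ddit3 (0.104) ended.

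Atf4 read 19.8, 23.1 and 14.7 CPM in wt total, 25.6, 36.8 and 31.6 in Mkrn3ox total, 20.7, 38.2 and 16.4 in wt cytoplasm and 107, 122 and 87.8 in Mkrn3ox cytoplasm. All 3 Mkrn3ox cytoplasm libraries, with 42 to 48 counts, stood above the other 9, which held 6 to 20. The difference in the cytoplasm was 2.04 ± 0.46, adjusted p = 0.00584, and against Mkrn3ox total RNA it was 1.75 ± 0.44, adjusted p = 0.0232. Canx read 555, 408 and 602 CPM in wt total, 812, 891 and 919.6 in Mkrn3ox total, 497, 514 and 643 in wt cytoplasm and 337, 583 and 351 in Mkrn3ox cytoplasm. The Mkrn3ox total libraries were the highest, at 0.74 ± 0.21, adjusted p = 0.0369 against wt total. This only edgeR call in total RNA was lost whichever of the 6 libraries was left out (adjusted p up to 0.171). Hspa5 read 39.6, 46.1 and 17.4 CPM in wt total, 31.1, 46.0 and 36.6 in Mkrn3ox total, 18.1, 59.5 and 62.9 in wt cytoplasm and 39.9, 10.2 and 31.4 in Mkrn3ox cytoplasm, 4 to 28 counts per library. Its groups overlapped in every comparison, with -0.78 ± 0.59, adjusted p = 0.469 in the cytoplasm.

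**Figure D5:**
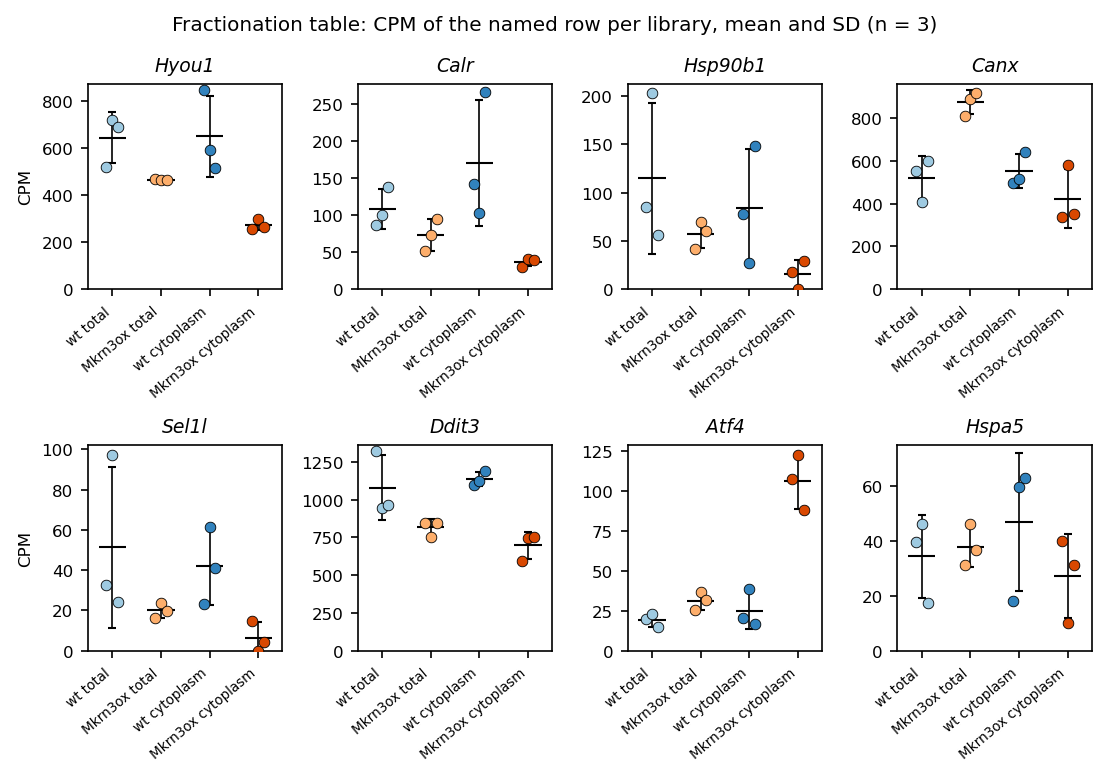
CPM of the row that carries the member's name per fractionation library (points), group mean (line) and SD (bar, n = 3) for 8 members in the 4 groups, with linear axes from 0. The Mkrn3ox cytoplasm is the lowest group for Hyou1, Calr and Ddit3 and the highest for Atf4.

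Between compartments, no member was called in wt cells by edgeR, against 3.78% of all genes. There, 1 member had an unadjusted p under 0.05, beside 805 of all 5033 genes, and DESeq2 called 0, beside 269 genes. In cells labelled Mkrn3ox 1 member, Atf4, was higher and 2 were lower in the cytoplasm than in total RNA, 15% called against 4.53% of all genes (0.775% higher, 3.76% lower). The 2 were Canx (-1.05 ± 0.22, adjusted p = 0.00645) and Hyou1 (-0.76 ± 0.21, adjusted p = 0.0382). The call of Canx was lost without Mkrn3ox cytoplasm 1 (adjusted p = 0.0522), and those of Atf4 and Hyou1 without any 1 of the 6 libraries (up to 0.137). Each of these fits called 1 member, lower in the cytoplasm. Without Mkrn3ox cytoplasm 1 the member called was not Canx, Atf4 or Hyou1. The test of whether the cytoplasm-to-total ratio itself differed between the lines called no member by edgeR, against 0.219% of all genes. At an unadjusted p under 0.05 there were 4 of 20 members, beside 485 of all 5033 genes. DESeq2 called 1 member, Canx (adjusted p = 0.0437), beside 50 of all genes. In the edgeR fit the difference in the ratio was -1.12 ± 0.31, adjusted p = 0.153 for Canx, and 1.33 ± 0.66, adjusted p = 0.524 for Atf4.

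Of the 90 rows of other genes of the pathway 40 were tested in the fractionation table. In total RNA 2 were higher and 2 lower in the libraries labelled Mkrn3ox (10%, against 7.39% of all genes), with the signal peptidase subunit Spcs3 at -2.87 ± 0.27, adjusted p = 2.37e-07. In the cytoplasm 1 was higher and 5 lower (15%, against 10.5%), and Spcs3 was at -2.74 ± 0.28, adjusted p = 6.86e-07 and Edem3, a relative of Edem1, at -2.14 ± 0.47, adjusted p = 0.00507. Between cytoplasm and total RNA Eif2s2, the beta subunit of eIF2, was the 1 gene called in wt cells (-2.86 ± 0.34, adjusted p = 1.38e-05), 2.5% against 3.78% of all genes. In cells labelled Mkrn3ox Eif2s2 (-2.88 ± 0.35, adjusted p = 3e-05) was lower and Atf5, a relative of Atf4, was higher (2.10 ± 0.44, adjusted p = 0.0064), 5% against 4.53%. None of the 40 was called for the ratio between the lines by edgeR, against 0.219% of all genes, or by DESeq2. An unadjusted p under 0.05 was found for 2, beside 485 of all 5033 genes.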

How the data were processed

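RNA of GT1-7 cells was measured in 24 libraries, 12 in each of 2 experiments, made by CEL-seq2 per the labels' protocols. The authors deposited raw counts per gene in 2 tables of 57010 rows. Cutadapt, STAR, HTSeq and the build mm10 are named, with no version, in the submitters' processing notes. The annotation, the strand setting and whether molecular identifiers were used were not found in the labels. Of the rows, 1606 have no gene name. The largest share of counts in 1 row was that of mt-Nd6 in the fractionation table.

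Groups came from the labels, 3 libraries each. For each table a model of its own was fitted in R 4.3.3 by edgeR 4.0.16 (TMM for scaling, the filterByExpr filter, group means without covariates, two-sided quasi-likelihood test, Benjamini-Hochberg adjustment over all tested genes, threshold 0.05), giving 10 contrasts. CPM values are on the TMM scale. The code was tested on simulated data. Promoters were searched with Python 3.11.15. The members, their roles, the list of other genes and the tests were chosen with earlier results of these data known. All members may be named, with values in every library for each member called in at least 1 contrast and for Hspa5, Xbp1, Atf4, Ddit3, Herpud1 and Asns. Of the other genes, at most the 3 called ones with the lowest p are named per contrast. Alternatives were DESeq2 1.42.0 size factors or its test, library size alone, other filters on low counts, the compared groups alone, the replicate number as a block, and leaving out each library or the mt-Nd6 row.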

Additional observations from a re-analysis of the deposited data

Results flagged for a closer look

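The difference between the plasmids in IP against input, tested as an interaction in the edgeR quasi-likelihood fit, passed an adjusted p of 0.05 for 20 members, which is why they are listed. The effect of the pull-down was more positive with GFP-Mkrn3 than with GFP for Chac1 (1.66), Atf4 (1.23), Herpud1 (1.00), Syvn1 (0.888), Ppp1r15a (0.706), Ddit3 (0.573), Xbp1 (0.527) and Sdf2l1 (0.478), in log2 units. It was more negative for the chaperones and folding enzymes Hsp90b1 (-0.861), Canx (-0.844), Hyou1 (-0.735), Calr (-0.631), Pdia4 (-0.596), Hspa5 (-0.573), Dnajc3 (-0.395) and Pdia6 (-0.374). It was also more negative for Sel1l (-0.519), Ppp1r15b (-0.421), Psat1 (-0.363) and Edem1 (-0.332). Over all 13052 tested genes 24.3% passed the same test. Of the more positive members, Chac1, Atf4, Herpud1 and Syvn1 were called above their own input in the GFP-Mkrn3 IP. Ppp1r15a (0.24 ± 0.11, adjusted p = 0.116) and Xbp1 (0.06 ± 0.12, 0.755) were not called against it, and Ddit3 and Sdf2l1 were lower. Of the more negative, Canx, Calr and Dnajc3 were lower than it and the rest were not called. The test also takes in the difference between the inputs, as for Chac1 (-0.57) and Ppp1r15a (-0.33).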

How the results depend on the processing

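No called member value changed sign under any setting run. The 93 calls gave 678 values with 1 library left out, of which 563 stayed called and 115 did not, and 700 values under other settings, of which 638 stayed called and 62 did not. In total RNA the count of 1 member called between the lines became 2 with DESeq2 size factors, with a filter at a mean of 20 counts, with the DESeq2 test and with the compared groups alone, and 0 to 0 with a library left out. In cytoplasmic RNA the count of 6 became 3 with library size alone and 4 to 5 with a library left out. The cytoplasm-to-total ratio had 0 members called and 1 with the DESeq2 test. For cytoplasm against total in Mkrn3ox the 3 calls became 1 to 1 with a library left out, and without a filter Atf4 was lost (adjusted p = 0.0995). With a library left out, for the GFP-Mkrn3 IP against input the 14 calls ranged from 8 to 18, for the GFP IP against input the 24 calls from 21 to 24, between the IPs the 25 calls from 20 to 26, and for the enrichment beyond GFP the 20 calls from 15 to 22. The counts of 18, 26 and 22 came without GFP-Mkrn3 IP 3. Over all genes, leaving it out gave 4576 calls instead of 3487 in the GFP-Mkrn3 IP against input. Between the IPs it gave 5640 instead of 4907, and for the enrichment beyond GFP 4359 instead of 3178. Without a filter the GFP IP had 11 higher and 13 lower. Same-numbered libraries did not deviate together in every pair of any 2 groups. With 3 libraries a group this cannot show whether an input and an IP of the same number share a lysate. The main fits did not pair them. With the replicate number as a block the calls were 0 in total RNA, 4 in cytoplasmic RNA, 2 for cytoplasm against total in Mkrn3ox, 24 for the GFP IP, 13 for the GFP-Mkrn3 IP, 23 between the IPs and 20 for the enrichment beyond GFP. With the block within each plasmid they were 21 for the GFP IP, 12 for the GFP-Mkrn3 IP and 16 for the enrichment beyond GFP. The causes were not tested. In the fractionation experiment 17 members had too few counts to test.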
